A study of Mus musculus with 20 samples.

Results

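The genes described here are 31 protein-coding neighbours of Tnfaip6 on mouse chromosome 2, a fixed list of gene symbols that start within about 9 Mb of it. In all distances the start of a gene is its lowest coordinate, whatever its strand. For genes on the minus strand this is the end of the transcript and not the transcription start. All 31 have a row among the 51912 gene identifiers of the 24 h table, and 30 have one among the 19722 of the 4 h table, where Galnt5 has no value. A level high enough for testing was reached by 28 of them at each time: Kynu and Cytip stayed under the filters on low values at both times, and Galnt5 at 24 h. The annotation holds 18 further protein-coding genes in the same window. The samples were cultured slices of forebrain from mouse pups at postnatal day 4, kept in medium with 5% horse serum. The series text and the sample protocols differ on the serum medium. After 4 h of serum there were 3 slices labelled knockout (KO) and 3 labelled wild type (WT). After 24 h there were 4 KO-labelled female, 3 heterozygous (Het) female, 4 KO-labelled male and 3 Het male slices. The control genotype thus differs between the times. The labels give no strain, no design of the Tnfaip6 allele and no history of crossing, and they leave unsaid whether each slice is from its own animal, so that p-values refer to differences among libraries, which may be technical. The text on the 24 h treatment calls the controls WT, whereas titles and genotype fields call them heterozygous, and the titles were followed.

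TSG-6, the secreted product of Tnfaip6, attaches to hyaluronan and links it with heavy chains taken from inter-alpha-inhibitor, which stabilises the extracellular matrix during inflammation. A gene targeted in embryonic stem cells and crossed into another strain usually keeps a stretch of donor chromosome on both sides of the targeted site, because recombination close to the site is rare. Genes in such a passenger segment can differ between mutant and control mice through the donor alleles they carry, whatever the targeted gene does. A homozygous KO mouse carries the segment on both homologues, a heterozygote on a single homologue and a WT mouse on neither. The comparison asks whether the expression of the neighbours of Tnfaip6 differed with the KO label.

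Library totals were 11411532 to 15030171 reads at 4 h and 8482933 to 18051300 reads at 24 h. Xist, the RNA of the inactive X chromosome, and Y-linked genes were read as a check of the labelled sex. KO female 2 had 0 Xist reads and 1650 reads of Y-linked genes, against its label. The main counts over the neighbours at 24 h, and many of the values that turn on females, are therefore also given without it. At 4 h, where the labels give no sex, KO 1 with 2355 Xist reads and WT 1 with 5655 were the libraries that carried Xist. Reads of Tnfaip6 were present in every KO-labelled library: its level was 40.6, 73.2 and 83.3 normalised reads in KO-labelled slices at 4 h, against 67.2, 92.6 and 84.4 in WT slices. The groups overlapped, and the log2 fold change of -0.36 ± 0.25 did not pass (limma adjusted p = 0.563). At 24 h it averaged 6.51 ± 1.52 CPM (reads scaled to a common library total) in KO-labelled females (SD, n = 4), 4.60 ± 1.08 in Het females (n = 3), 6.70 ± 0.930 in KO-labelled males (n = 4) and 5.16 ± 1.24 in Het males (n = 3). The 24 h log2 fold change averaged over sexes was 0.45 ± 0.16, higher in KO-labelled slices (edgeR p of 0.0122 before and 0.738 after adjustment). Without KO female 2 it was 0.49. The slices are called KO-labelled because reads of Tnfaip6 were present in all of them. Markers fitting forebrain were read in every library. The summed level of 6 pan-neuronal genes was 82255 to 88929 normalised reads in KO-labelled slices at 4 h and 76380 to 79148 in WT slices.

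The sequence before the transcription start is shown for 3 neighbours that had an unadjusted p under 0.05 in the averaged 24 h contrast and hold a GC box, so that the promoters of the genes described most can be seen beside their values. Capitals mark GC boxes, GGGCGG or its reverse complement CCGCCC, the letters bound by Sp family factors, and overlapping matches run together. The bases come from RefSeq promoters of GRCm38.p6 and are written 5′ to 3′ on the gene's own strand, up to the base before the annotated first exon. Bases in any other annotated exon are left out as well. In all, 140 of the 250 bases of the Arl5a entry lay in annotated exons, some of them upstream of the stretch shown.
Lypd6, chr2:50066179-50066428, plus strand: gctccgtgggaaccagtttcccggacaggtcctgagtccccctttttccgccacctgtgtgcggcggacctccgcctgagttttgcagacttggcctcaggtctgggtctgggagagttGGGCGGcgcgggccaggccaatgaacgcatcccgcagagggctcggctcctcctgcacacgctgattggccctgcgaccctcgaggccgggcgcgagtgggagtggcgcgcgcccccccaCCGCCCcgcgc
Arl5a, chr2:52424902-52425011, minus strand: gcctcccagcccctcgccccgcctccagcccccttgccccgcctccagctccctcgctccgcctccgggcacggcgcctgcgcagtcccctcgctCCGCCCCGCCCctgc
Fmnl2, chr2:52857618-52857859, plus strand: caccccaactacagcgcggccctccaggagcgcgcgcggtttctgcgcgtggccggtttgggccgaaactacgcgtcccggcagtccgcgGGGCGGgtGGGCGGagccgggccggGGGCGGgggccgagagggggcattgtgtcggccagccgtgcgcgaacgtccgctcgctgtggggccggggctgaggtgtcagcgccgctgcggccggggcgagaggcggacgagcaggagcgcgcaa
The Lypd6 stretch held 24 CpG dinucleotides in 250 bases, that of Arl5a 12 in 110 bases and that of Fmnl2 38 in 242 bases. The median over all promoter entries was 6 in 250 bases. Of the 26 neighbours with a RefSeq promoter entry, 18 (69.2%) had a GC box on either strand in the 250 bases before at least 1 annotated transcription start, against 35.4% of 27025 genes. Those genes were not filtered by type or level, whereas the neighbours are all protein-coding, so the 2 shares come from unlike sets. For this count bases in annotated exons were kept, all 250 in the case of Acvr1. Kynu, Lypd6b, Mmadhc, Rif1 and Neb have no entry. A match is a description of these letters and not a measured binding site.

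Per length of exon, the neighbours covered a wide range of levels. Kif5c, the neuronal kinesin-1 heavy chain that moves cargo along microtubules, had the highest median over libraries, with 127 RPKM (reads per kb of exon, scaled to a common library total) at 4 h and 114 at 24 h. Rprm, a p53-induced regulator of cell cycle arrest, was second with 84.5 at 4 h and 72.6 at 24 h. Its range over libraries was 73.9 to 90.9 at 4 h and 52.7 to 86.6 at 24 h, and did not reach that of Kif5c, which was 124 to 143 at 4 h and 106 to 121 at 24 h. A large middle group lay between the 25.4 of Mmadhc and the 2.27 of Nmi at 24 h, and its members overlapped with their neighbours in the order. Neb, the giant thin-filament protein nebulin of skeletal muscle, had a median of 0.145 RPKM at 24 h, and Ermn, the oligodendrocyte cytoskeletal protein ermin, had 0.226. Cytip, a cytohesin-binding protein of leukocytes, had 0.0782 and Kynu, the kynureninase of tryptophan breakdown, 0.0390. Galnt5, an enzyme that starts mucin-type O-glycans, had 6 reads in all 14 libraries at 24 h, and no fold is given for it.

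**Figure D1:**
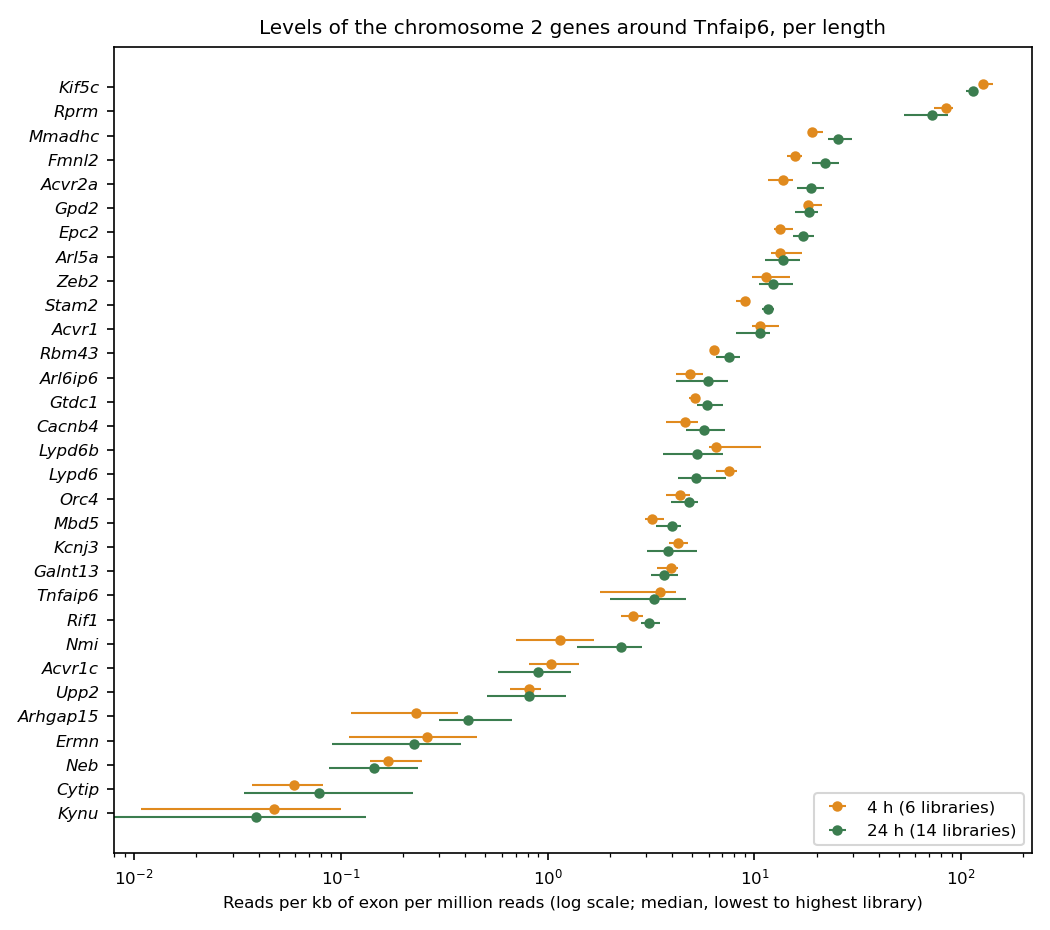
Levels of the chromosome 2 neighbours and of Tnfaip6 in reads per kb of exon, scaled for library total, on a log axis. Points are medians over the 6 libraries at 4 h and the 14 at 24 h and lines run from the lowest to the highest library. Kif5c is at the top with 127 and 114, and the Kynu line leaves the left edge because a library had 0 reads; Galnt5, with a median of 0, is not drawn.

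No neighbour passed the adjusted threshold of 0.05 after 4 h of serum by limma (0 of 28; 0 by DESeq2 as well), where 0.0461% of 15181 tested genes did. At an unadjusted limma p under 0.05 there were 2 of 28, both higher in KO-labelled slices: Lypd6b and Zeb2. This share of 7.14% lies under the 13.9% of all tested genes (7.25% counting higher genes only). The neighbours nevertheless leaned to one side, since 23 of 28 had a log2 fold change above 0, against 50.6% of all tested genes, 582 of 1158 genes on the rest of chromosome 2 and 4 of 12 other genes of the window. Their median log2 fold change was 0.08 and ran to a lowest value of -0.17 for Orc4 and a highest of 0.41 for Lypd6b. Without KO 2 the median was 0.03 and 17 of 28 lay above 0. The median log2 level of the neighbours had an SD of 0.0616 between libraries at 4 h, near the size of this median fold change of 0.08. Genes read in the same libraries are not independent, so the count of 23 is a description. Groups did not overlap for 2 neighbours, Kcnj3 and Rbm43, both higher in KO-labelled slices, against 10.1% of all tested genes. When the replicate number entered the fit as a block, 4 of 28 had an unadjusted limma p under 0.05 (Lypd6b, Kif5c, Zeb2 and Arl5a, all higher), against 16.0% of all genes, and 0 passed the adjusted threshold, which 0.25% of genes did. Without the libraries that carried Xist, 2 of 28 had an unadjusted limma p under 0.05, beside 8.03% of all genes, and 23 lay above 0, beside 51.5%.

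Markers of other cell types moved with the label at 4 h. All 6 excitatory neuron markers were above 0, with a summed level of 10584 to 11844 normalised reads in KO-labelled slices and 7741 to 9400 in WT slices, and all 6 pan-neuronal markers were above 0. All 6 endothelial and pericyte markers were below 0, with sums of 3802 to 3993 in KO-labelled and 4480 to 5060 in WT slices. All 6 meningeal markers were below 0, with sums of 1624 to 2549 in KO-labelled and 2237 to 2824 in WT slices, and so were all 7 astrocyte markers. In bulk slices, fewer cells of a type and less RNA per cell cannot be told apart. The part of these shifts in the fold changes of the neighbours was not tested.

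After 24 h, 0 of 28 neighbours passed the adjusted threshold in the contrast averaged over sexes, by edgeR or by DESeq2, and edgeR called 0.0% of 16013 tested genes. At an unadjusted edgeR p under 0.05 there were 5 of 28, or 17.9%, against 6.62% of all genes. Fmnl2 was the 1 on the higher side (3.82% of all genes), and Arl5a, Lypd6b, Ermn and Lypd6 were the 4 on the lower side (2.8%). Directions were even, with 14 of 28 above 0 and a background of 50%. The median size of the log2 fold change without its sign was 0.114 for the neighbours and 0.0664 for all tested genes. It was 0.0599 for the 13 other tested genes of the window and 0.0612 for the 1196 on the rest of chromosome 2. An unadjusted edgeR p under 0.05 was seen for 0 of these 13 and 82 of these 1196. The higher share was thus seen in the list, which was chosen with earlier results known, and not in the other genes of the window. Without KO female 2, 6 of 28 had an unadjusted p under 0.05, beside 5.45% of all genes, and 14 lay above 0. Choroid plexus markers, 5 of 5 tested above 0, summed to 16.1 to 2794 CPM in KO-labelled slices and 12.9 to 19.0 in Het slices. All 6 excitatory neuron markers lay above 0 in the averaged contrast, with sums of 637.3 to 870.9 CPM in KO-labelled and 544.3 to 831.1 in Het slices, and 6 of 7 astrocyte markers below 0, with 3315 to 4242 in KO-labelled and 3014 to 5315 in Het slices. Meningeal markers lay below 0 for all 6 in females, with sums of 146.5 to 342.9 CPM in KO-labelled and 281.4 to 306.0 in Het slices. In males 5 of 6 lay above 0, and their sums did not overlap, at 302.2 to 378.1 CPM in KO-labelled and 237.5 to 284.1 in Het slices. The part of these markers in the values of the neighbours was not tested.

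Within females at 24 h, 2 of 28 had an unadjusted edgeR p under 0.05, both lower in KO-labelled slices: Arl5a and Nmi. The background was 4.1%, or 2.04% counting lower genes only. Both also had groups that did not overlap, which 2.4% of genes had in that direction. Of the 28, 13 lay above 0 (background 51.2%), and 10 without KO female 2. Without it 2 of 28 again had an unadjusted edgeR p under 0.05, beside 3.63% of genes. Within males, Fmnl2 and Acvr2a were higher and Arl5a and Lypd6b lower at an unadjusted edgeR p under 0.05, 4 of 28 beside a background of 6.87% (4.13% higher, 2.74% lower). Groups did not overlap for Fmnl2 on the higher side (3.4% of genes) and for Arl5a and Lypd6b on the lower side (3.77%), and 18 of 28 lay above 0 (background 49.7%). Without KO female 2 in the shared fit, 17 of 28 lay above 0 in males (background 48.2%). Ermn then had an edgeR p of 0.0407 there and Acvr2a one of 0.0503, so 4 of 28 stayed under 0.05 (background 7.2%). No neighbour passed the adjusted threshold in either sex, where edgeR called 0.0% of genes. For the male minus female difference between the genotype contrasts, Fmnl2 was the 1 of 28 with an unadjusted edgeR p under 0.05 (background 3.86%), and none passed the adjusted threshold (background 0.0%).

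**Figure D2:**
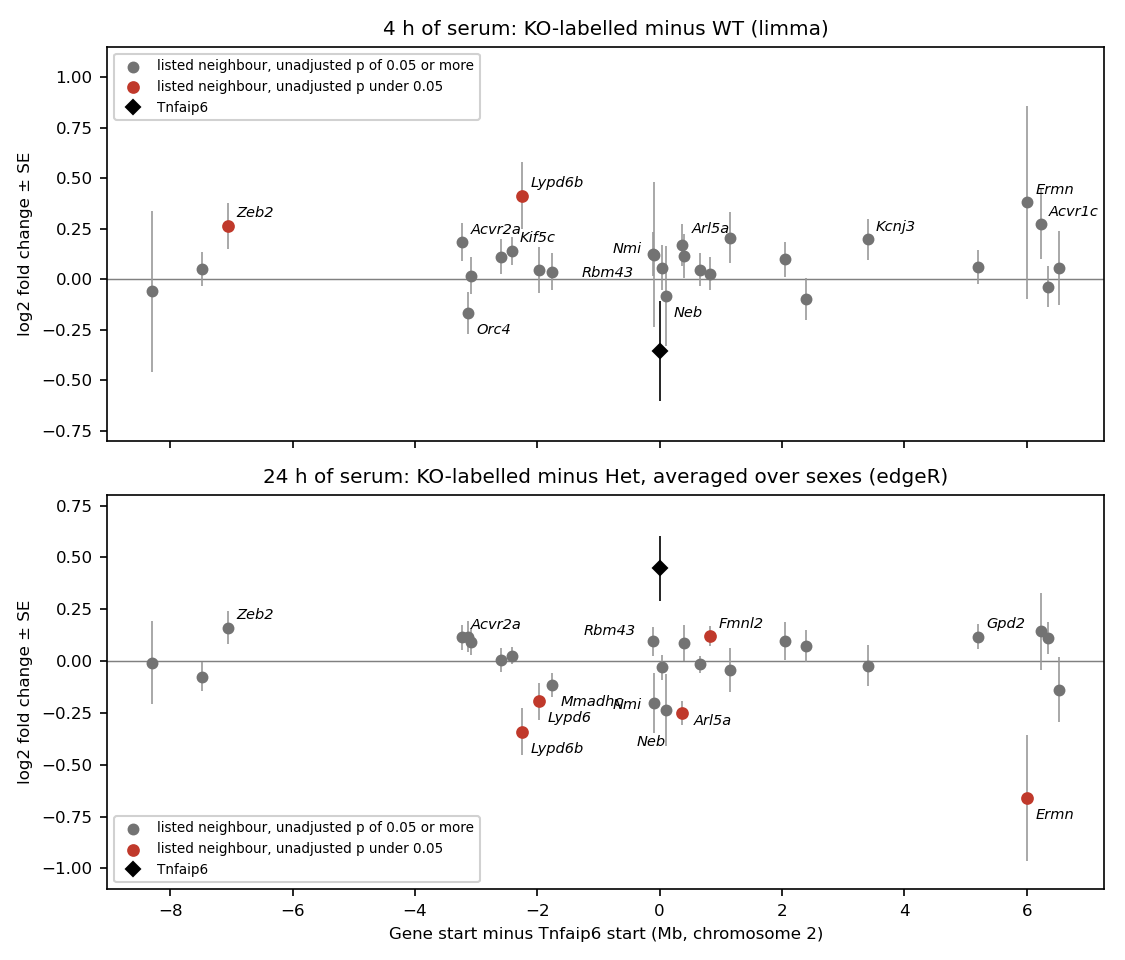
Log2 fold change ± SE of each tested neighbour and of Tnfaip6 by the distance of its start from that of Tnfaip6 in Mb, KO-labelled minus WT at 4 h (top) and KO-labelled minus Het averaged over sexes at 24 h (bottom). Red points have an unadjusted p under 0.05: Zeb2 and Lypd6b at 4 h, and Lypd6b, Lypd6, Arl5a, Fmnl2 and Ermn at 24 h, on both sides of Tnfaip6.

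Arl5a was the neighbour whose level differed most regularly at 24 h. It encodes a small GTPase of the trans-Golgi network that helps return vesicles from endosomes, and lies at chr2:52397951-52424901 on the minus strand (GRCm38, gene ENSMUSG00000036093), 0.36 Mb from the start of Tnfaip6, with no exon shared with another annotated gene. In females its level was 65.1, 78.4, 71.4 and 64.1 CPM in KO-labelled slices and 86.5, 78.7 and 90.4 in Het slices. In males it was 61.4, 74.9, 65.8 and 67.3 CPM in KO-labelled slices and 82.0, 75.5 and 75.9 in Het slices. Every KO-labelled slice thus lay below every Het slice of its labelled sex, although the nearest pair differed by less than 1 CPM in each. KO female 2, whose Y-linked reads go against its label, had the 78.4 CPM and lay above Het males 2 and 3. In all, 0.0999% of tested genes had non-overlapping lower groups in both sexes, and Arl5a was the single listed neighbour among them. Averaged over sexes, the log2 fold change came to -0.25 ± 0.06 (SE), with an edgeR p of 0.000496 before and 0.738 after adjustment over all genes. It was -0.29 ± 0.08 in females and -0.21 ± 0.08 in males, and -0.28 averaged without KO female 2. Leaving out each library in turn gave averaged values from -0.28 to -0.23. With no filter on low counts the edgeR adjusted p was 0.00328, a setting under which 263 genes passed, and over all alternatives it ran from 0.00328 to 0.988.

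At 4 h Arl5a lay on the other side. Its level was 1201, 899 and 950.2 normalised reads in KO-labelled slices and 955.5, 840.5 and 897.5 in WT slices. KO 1 was high and the other libraries overlapped. The log2 fold change was 0.17 ± 0.10 and did not pass (limma adjusted p = 0.486). Stam2, a subunit of the complex that sorts ubiquitinated receptors on endosomes, lies 0.65 Mb from Tnfaip6 and had log2 fold changes of 0.05 at 4 h and -0.02 at 24 h. Part of its exons is shared with a pseudogene on the same strand over 293 bases, so reads there may not all be counted for Stam2. Arl6ip6, a membrane protein that binds the small GTPase ARL6, had 0.21 ± 0.13 at 4 h and -0.04 ± 0.11 at 24 h. Of these 3 genes of membrane traffic, all lay above 0 at 4 h, as did 23 of all 28 neighbours. All 3 lay below 0 in the averaged 24 h contrast, where 14 of all 28 neighbours lay above 0. Stam2, at -0.02 ± 0.04, and Arl6ip6 were within their SE of 0 there. In males 1 of 3 lay above 0, Arl6ip6 with 0.05 ± 0.15.

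**Figure D3:**
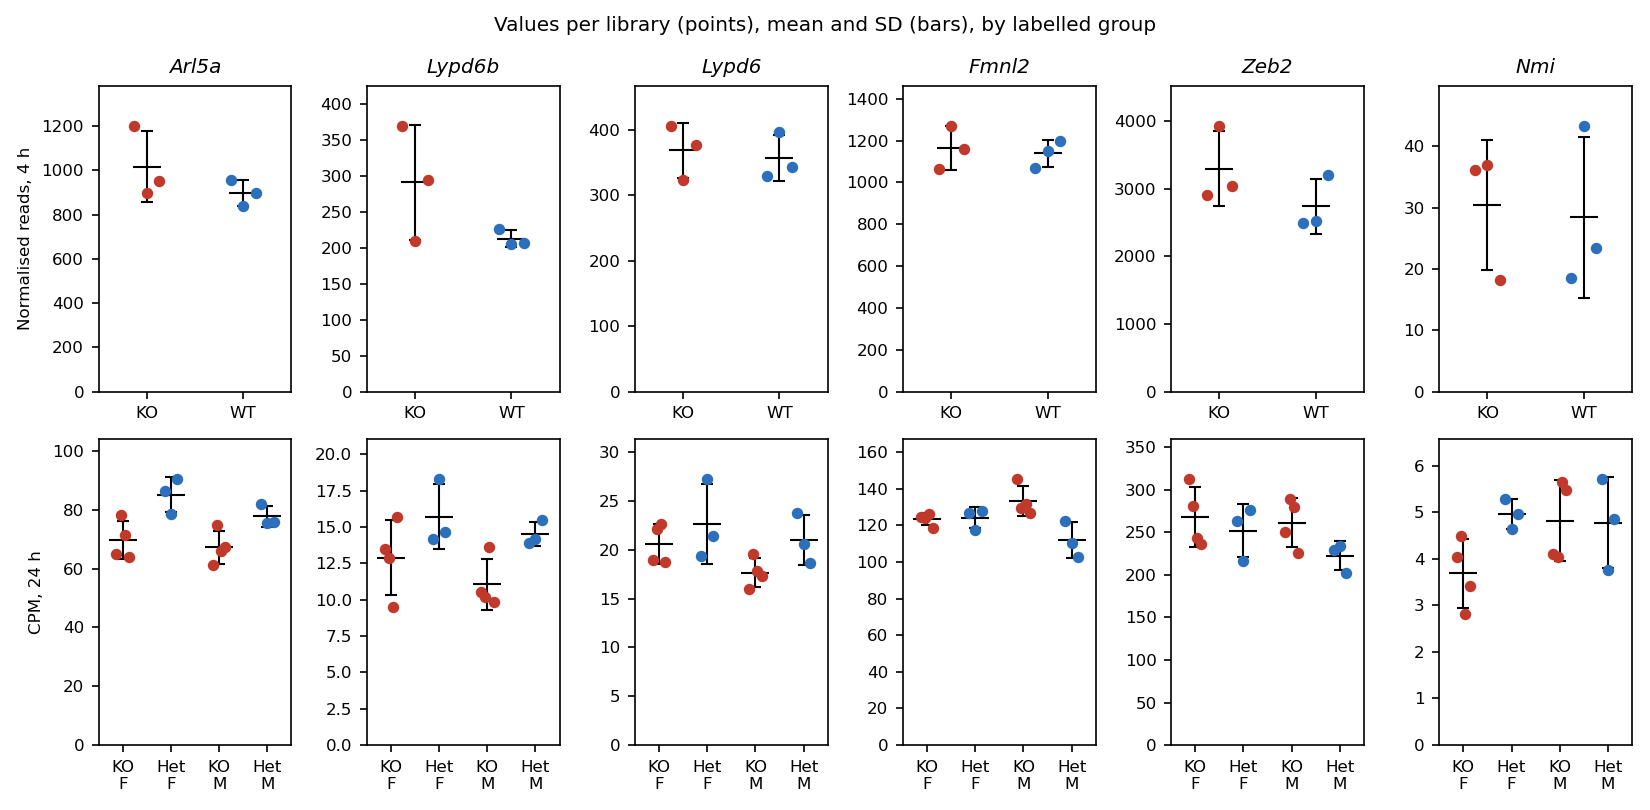
Level of 6 neighbours in every library, in normalised reads at 4 h (top) and CPM at 24 h (bottom), with KO-labelled slices in red left of their WT or Het controls in blue, and F and M for labelled sex. Bars are the mean and SD; Arl5a at 24 h has every KO-labelled point below every Het point of the same labelled sex, at 61.4 to 78.4 CPM in KO-labelled slices and 75.5 to 90.4 in Het slices.

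Lypd6b and Lypd6 are adjacent paralogues of the Ly6 family, small membrane-anchored proteins that bind nicotinic acetylcholine receptors. Lypd6b starts 2.25 Mb below Tnfaip6 and Lypd6 1.97 Mb below, and neither shares exon bases with another gene. Lypd6b had 369.7, 210.0 and 294.3 normalised reads in KO-labelled slices at 4 h, against 226.3, 205.0 and 207.3 in WT slices. KO 1 and KO 3 were high while KO 2 lay within the WT range, so the groups overlapped. The log2 fold change was 0.41 ± 0.17 with a limma p of 0.0253 before and 0.281 after adjustment. Without KO 2 it was 0.63 with a limma adjusted p of 0.028, the 1 neighbour call made by leaving out a library at either time, and over all alternatives the adjusted p ran from 0.028 to 0.743.

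At 24 h Lypd6b was on the lower side. It had 13.5, 12.9, 9.49 and 15.7 CPM in KO-labelled females and 14.2, 18.3 and 14.6 in Het females. In males it had 10.5, 10.2, 13.6 and 9.86 CPM in KO-labelled slices and 13.9, 14.2 and 15.5 in Het slices. The groups overlapped in females through KO female 4, and did not overlap in males. Averaged over sexes, its value was -0.34 ± 0.11, with an edgeR p of 0.00819 before and 0.738 after adjustment, and -0.34 without KO female 2. Lypd6 showed the same order with smaller differences. It had 18.9, 22.1, 22.6 and 18.7 CPM in KO-labelled females and 19.3, 27.3 and 21.4 in Het females, and 16.0, 19.6, 17.8 and 17.3 in KO-labelled males and 23.8, 20.6 and 18.7 in Het males. Groups overlapped in both sexes, and the averaged value of -0.19 ± 0.09 had an edgeR p of 0.0454 before and 0.753 after adjustment and was -0.21 without KO female 2. At 4 h Lypd6 had 405.9, 322.9 and 376.4 normalised reads in KO-labelled slices and 329.7, 396.1 and 343.5 in WT slices, which interleave (log2 fold change 0.05 ± 0.11). Per length the pair stood close together: 4.91 ± 1.00 and 5.47 ± 0.531 RPKM for Lypd6b and Lypd6 in KO-labelled females, and 6.02 ± 0.872 and 6.07 ± 1.11 in Het females.

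Fmnl2, a formin that elongates actin filaments at the cell edge, starts 0.82 Mb above Tnfaip6. In males it had 145.2, 129.2, 131.5 and 126.7 CPM in KO-labelled slices and 122.5, 110.6 and 102.8 in Het slices. In females it had 124.5, 123.9, 126.2 and 118.5 CPM in KO-labelled slices and 126.7, 117.7 and 128.0 in Het slices. All 4 KO-labelled males lay above all 3 Het males, whereas the female groups interleaved. The log2 fold change was 0.25 ± 0.07 in males (edgeR p of 0.00185 before and 0.718 after adjustment) and -0.01 ± 0.07 in females. The difference between the sexes was 0.26 ± 0.09, with an edgeR p of 0.0143 before and 0.977 after adjustment, so it did not pass. Without KO female 2 it was 0.26 (edgeR p of 0.0189 before and 0.913 after adjustment). At 4 h, with 1062, 1270 and 1159 normalised reads in KO-labelled and 1071, 1149 and 1199 in WT slices, the groups interleaved.

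The other neuronal genes of the list were close to their controls or higher at 4 h. Kif5c had 12690, 13580 and 11770 normalised reads in KO-labelled slices and 11350, 11860 and 11220 in WT slices. Kcnj3, the GIRK1 potassium channel subunit opened by G proteins, had 295.1, 329.9 and 295.5 normalised reads in KO-labelled slices and 259.9, 262.1 and 279.5 in WT slices. Kcnj3 groups did not overlap, whereas the lowest KO-labelled library of Kif5c lay below the highest WT library. Log2 fold changes were 0.14 ± 0.07 for Kif5c (limma adjusted p = 0.389) and 0.20 ± 0.10 for Kcnj3 (limma adjusted p = 0.414). At 24 h they were 0.03 ± 0.04 and -0.02 ± 0.10. Kcnj3 shares 1621 exon bases with the noncoding gene Gm26794 on the opposite strand, and reads of such pairs cannot be told apart because the strand setting is not given in the sources used here. Cacnb4, the auxiliary subunit of voltage-gated calcium channels, shares 1433 exon bases with A430018G15Rik on the opposite strand and had 0.12 ± 0.11 at 4 h and 0.09 ± 0.09 at 24 h. All 6 genes of the neuronal group lay above 0 at 4 h, as did 23 of all 28 neighbours and 50.6% of genes. Fmnl2, counted in this group, had 0.03 ± 0.08 there. Excitatory and pan-neuronal markers lay above 0 at 4 h too, and their part in the values of this group was not tested. In the averaged 24 h contrast 3 of 6 in the group lay above 0, beside 14 of all 28 neighbours.

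Among factors of chromatin, transcription and replication, Zeb2 had the largest fold changes at 4 h and in the averaged 24 h contrast. It is a zinc-finger repressor that binds SMAD proteins and acts in cortical, interneuron and glial development, and starts 7.05 Mb below Tnfaip6. At 4 h it had 2915, 3930 and 3048 normalised reads in KO-labelled slices and 2488, 2519 and 3210 in WT slices. KO 2 was highest, and WT 3 lay above the other slices labelled KO. The difference on the log2 scale was 0.27 ± 0.11 (limma p of 0.0360 before and 0.317 after adjustment). At 24 h it had 312.7, 281.6, 243.9 and 236.8 CPM in KO-labelled females and 263.7, 216.7 and 276.4 in Het females. In males it had 250.7, 289.4, 280.1 and 225.6 CPM in KO-labelled slices and 229.8, 234.6 and 202.9 in Het slices. The groups overlapped in both sexes, and the averaged value was 0.16 ± 0.08 (edgeR p of 0.0526 before and 0.758 after adjustment), or 0.15 without KO female 2. Zeb2 shares 653 exon bases with its antisense gene Zeb2os.

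Rif1, which sets replication timing and protects broken DNA ends, is the nearest listed neighbour, with its start 0.035 Mb above that of Tnfaip6. It had 313.8, 402.3 and 353.6 normalised reads in KO-labelled slices at 4 h and 349.1, 309.4 and 365.9 in WT slices. At 24 h it had 33.5, 32.1, 33.6 and 33.2 CPM in KO-labelled females and 36.5, 32.4 and 35.0 in Het females, and 31.3, 34.7, 32.0 and 30.5 in KO-labelled males and 36.7, 29.7 and 30.0 in Het males. Every pair of groups overlapped. The log2 fold changes were 0.06 ± 0.11 at 4 h and -0.03 ± 0.06 at 24 h, and the sign turned without WT 2 or KO 2 at 4 h and without Het male 1 at 24 h.

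The remaining chromatin and replication genes had small values. Orc4, a subunit of the origin recognition complex, had -0.17 ± 0.10 at 4 h and 0.12 ± 0.08 at 24 h. Its exons overlap those of Acvr2a over 446 bases and of Mbd5 over 136 bases on the opposite strand. Mbd5, a protein with a methyl-CpG-binding domain, had 0.02 at 4 h and 0.09 at 24 h. Epc2, a subunit of the NuA4 histone acetyltransferase complex, had one of the 3 smallest p-values for the difference between sexes. It had 77.6, 75.4, 74.1 and 79.5 CPM in KO-labelled females and 80.5, 73.6 and 89.8 in Het females, and 87.9, 85.6, 86.7 and 86.7 in KO-labelled males and 81.0, 91.6 and 69.7 in Het males. KO-labelled males were tightly grouped inside the wider Het male range, and the difference of 0.18 ± 0.12 had an edgeR adjusted p of 0.977, and was 0.17 without KO female 2 (edgeR adjusted p = 0.913).

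The 3 receptors of the activin and BMP family in the list lie on both sides of Tnfaip6 and all had averaged 24 h fold changes above 0. Acvr2a, a type II receptor that binds activins, starts 3.22 Mb below. At 4 h it had 1154, 1007 and 1044 normalised reads in KO-labelled slices and 911.3, 1081 and 838.5 in WT slices. At 24 h it had 124.1, 111.4, 118.2 and 115.8 CPM in KO-labelled males and 107.8, 112.1 and 88.0 in Het males, and 98.6, 103.7, 97.7 and 121.8 in KO-labelled females and 100.6, 104.1 and 103.0 in Het females. Each pair of groups overlapped. Its log2 fold change was 0.18 ± 0.10 at 4 h (limma adjusted p = 0.413) and 0.19 ± 0.09 in males at 24 h (edgeR p of 0.0406 before and 0.719 after adjustment, or 0.0503 and 0.694 without KO female 2 in the shared fit). Acvr1c, the type I receptor ALK7, and Acvr1, the BMP type I receptor ALK2, start 6.23 and 6.35 Mb above Tnfaip6 and had averaged 24 h values of 0.14 ± 0.19 and 0.11 ± 0.08. At 4 h they had 0.27 ± 0.17 and -0.04 ± 0.10. Per length in KO-labelled females, Acvr2a had 18.4 ± 2.10, Acvr1 10.6 ± 1.10 and Acvr1c 1.00 ± 0.342 RPKM, and the Het females gave the same order with 18 ± 0.321, 10.1 ± 1.87 and 0.926 ± 0.268.

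Nmi and Rbm43 are the nearest neighbours on the lower side. Nmi, an interferon-induced partner of STAT and MYC proteins, starts 0.09 Mb below Tnfaip6. In females at 24 h it had 4.04, 4.48, 2.81 and 3.41 CPM in KO-labelled slices and 5.29, 4.65 and 4.96 in Het slices, from 43 to 70 reads a library. In males it had 4.10, 4.03, 5.66 and 5.49 CPM in KO-labelled slices and 5.71, 3.76 and 4.86 in Het slices. All KO-labelled females lay below the Het females, and the males interleaved. The female log2 fold change was -0.44 ± 0.20 (edgeR p of 0.0440 before and 1.0 after adjustment), the male one 0.04 ± 0.21, and their difference of 0.48 ± 0.29 did not pass (edgeR adjusted p = 0.977). Without KO female 2 the female value was -0.54 (edgeR p of 0.0219 before and 1.0 after adjustment) and the difference 0.58 (edgeR adjusted p = 0.913). At 4 h Nmi had 36.2, 37.1 and 18.3 normalised reads in KO-labelled slices and 18.6, 43.4 and 23.4 in WT slices, and its value of 0.12 ± 0.36 changed sign without WT 1, KO 1 or KO 2.

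Interferon response markers were read beside Nmi. All 8 had fold changes below 0 in females, with summed levels of 24.5 to 133.6 CPM in KO-labelled slices and 58.8 to 136.2 in Het slices, and all 8 lay above 0 in males, with 49.1 to 263.2 CPM in KO-labelled slices and 73.0 to 177.6 in Het slices. In the averaged 24 h contrast all 8 lay above 0, whereas Nmi had -0.20 ± 0.14. At 4 h 7 of 8 lay below 0, whereas Nmi had 0.12 ± 0.36. The part of these markers in the values of Nmi was not tested. Rbm43, a protein with an RNA recognition motif that starts 0.11 Mb below Tnfaip6, had 229.3, 228.5 and 222.4 normalised reads in KO-labelled slices at 4 h and 210.4, 207.9 and 205.3 in WT slices. These groups did not overlap, and the log2 fold change was 0.12 ± 0.11 (limma adjusted p = 0.638). At 24 h Rbm43 had 20.8, 22.6, 18.1 and 20.1 CPM in KO-labelled females and 19.9, 19.2 and 17.7 in Het females, and 19.8, 21, 20.96 and 18.8 in KO-labelled males and 19.1, 17.1 and 20.8 in Het males. Here the groups overlapped, with an averaged value of 0.09 ± 0.07. Arhgap15, a Rac-inactivating protein of blood cells, was thinly read and had values of -0.06 ± 0.40 at 4 h and -0.01 ± 0.20 at 24 h. Cytip had 3 to 8 reads a library at 4 h and 3 to 15 at 24 h. Markers of leukocytes other than microglia were low, with summed levels of 118.2 to 131.2 normalised reads in KO-labelled and 120.2 to 139.2 in WT slices at 4 h, and 10.7 to 18.2 CPM in KO-labelled and 12.7 to 16.6 in Het slices at 24 h. Of their list of 8, 2 were tested at each time, 1 above and 1 below 0 at 4 h and in the averaged 24 h contrast. Cd3e, Ly6g, S100a8 and Nkg7 were at 0 or without a value at 4 h, and Cd3e was at 0 at 24 h.

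Neb lies next to Rif1, 0.10 Mb above Tnfaip6. It had 49.4, 87.3 and 47.9 normalised reads in KO-labelled slices at 4 h and 74.3, 64.1 and 51.8 in WT slices. At 24 h it had 3.89, 4.20, 2.98 and 4.68 CPM in KO-labelled females and 6.27, 4.42 and 3.39 in Het females, and 3.10, 3.80, 4.17 and 2.31 in KO-labelled males and 3.84, 3.54 and 4.18 in Het males. All groups overlapped, and the log2 fold changes were -0.08 ± 0.25 at 4 h and -0.24 ± 0.17 at 24 h. The 4 h sign turned without WT 1, KO 1 or KO 3. Skeletal muscle markers were low, with summed levels of 9.64 to 14.2 CPM in KO-labelled and 11.4 to 12.9 in Het slices at 24 h.

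Ermn had the largest averaged fold change of the neighbours at 24 h, on few reads. It had 10, 15, 8 and 8 reads in KO-labelled females and 10, 15 and 15 in Het females, and 3, 4, 11 and 5 reads in KO-labelled males and 9, 18 and 13 in Het males. In CPM these were 0.749, 1.40, 0.449 and 0.635 in KO-labelled females and 0.755, 1.14 and 1.24 in Het females, and 0.333, 0.475, 1.02 and 0.398 in KO-labelled males and 0.886, 1.03 and 1.26 in Het males. KO female 2 lay above every Het female, and KO male 3 within the Het male range. Averaged over sexes, the value was -0.66 ± 0.30, with an edgeR p of 0.0444 before and 0.753 after adjustment, and -0.84 without KO female 2. At 4 h Ermn had 19.8, 10.6 and 13.7 normalised reads in KO-labelled slices and 21.2, 10.8 and 5.08 in WT slices (0.38 ± 0.48). In males all 7 tested markers of myelin and oligodendrocytes also lay below 0, with summed levels of 228.7 to 243.5 CPM in KO-labelled slices and 260.6 to 301.5 in Het slices. In females 3 of 7 did, with 241.8 to 308.3 CPM in KO-labelled slices and 243.6 to 284.4 in Het slices. Their part in the values of Ermn was not tested. Ermn also shares 237 exon bases with Galnt5 on the opposite strand. Rprm, the third of the tissue markers, had 0.10 ± 0.09 at 4 h and 0.10 ± 0.09 at 24 h.

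None of the tested enzymes of the list had an unadjusted p under 0.05 at 4 h, in either sex or averaged over sexes. Mmadhc, which hands cobalamin to its enzymes, is the third neighbour on the lower side at 1.76 Mb, with 568.3, 488.7 and 491.7 normalised reads in KO-labelled slices at 4 h and 532.1, 498.6 and 476.7 in WT slices. At 24 h it had 52.5, 51.8, 48.2 and 45.7 CPM in KO-labelled females and 53.9, 58.0 and 51.2 in Het females, and 53.5, 51.1, 48.3 and 45.3 in KO-labelled males and 52.9, 48.9 and 57.5 in Het males. The groups overlapped throughout. The averaged value was -0.12 ± 0.06 (edgeR p of 0.0554 before and 0.758 after adjustment), or -0.13 without KO female 2 (0.0436 and 0.893), and the 4 h value of 0.04 ± 0.09 turned sign without KO 1 or WT 3. Gpd2, the mitochondrial glycerol-3-phosphate dehydrogenase, had 0.06 ± 0.08 at 4 h and 0.12 ± 0.06 at 24 h, and Upp2, a uridine phosphorylase, had 0.05 ± 0.18 and -0.14 ± 0.16. Kynu had 1, 1 and 7 reads in KO-labelled slices at 4 h and 3, 5 and 5 in WT slices. Of the glycosyltransferases, Galnt13, a neuronal paralogue of Galnt5, had 3.66 ± 0.485 RPKM in KO-labelled females and 3.63 ± 0.332 in Het females. Its log2 fold changes were -0.10 ± 0.10 at 4 h and 0.07 ± 0.08 at 24 h. Gtdc1, a protein with a glycosyltransferase-like domain, had 0.05 ± 0.08 and -0.08 ± 0.07.

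Fold changes showed no steady order with distance from Tnfaip6. At 24 h the median log2 fold change without its sign was 0.107 for the 8 tested neighbours within 1 Mb, 0.0850 for the 8 between 1 and 3 Mb, 0.115 for the 5 between 3 and 6 Mb and 0.137 for the 7 beyond 6 Mb. At 4 h the same medians were 0.0992, 0.105, 0.167 and 0.0602. Those with an unadjusted edgeR p under 0.05 at 24 h were Arl5a and Fmnl2 within 1 Mb, Lypd6 and Lypd6b between 1 and 3 Mb and Ermn beyond 6 Mb. At 4 h both were on the lower side of Tnfaip6, at 2.25 Mb for Lypd6b and 7.05 Mb for Zeb2. Of the other protein-coding genes of the window, 12 were tested at 4 h and 13 at 24 h, and none passed the adjusted threshold by limma or edgeR.

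The genotype contrasts of the 2 sexes at 24 h, which share no library, pointed the same way for 19 of 28 neighbours (67.9%), against 53.0% of all tested genes. Across the 28 genes Pearson's r between the female and male log2 fold changes was 0.63 and Spearman's rho 0.61, and r was 0.55 without Ermn. Over all 16013 tested genes r was 0.19. Without KO female 2 the directions were the same for 17 of 28 (60.7%), against 49.2% of genes, with r of 0.77 across the neighbours, or 0.58 without Ermn, and 0.18 over all genes. These correlations are across genes, which are not independent replicates, and both contrasts come from one edgeR fit. Genes lower in both sexes included Arl5a, Lypd6b, Lypd6, Ermn, Neb and Mmadhc, and genes higher in both included Zeb2, Acvr1c and Gpd2. Between 4 h and 24 h, the directions were the same for 13 of 28 (46.4%), against 53.8% of genes tested at both times, and r was -0.40, or -0.18 without Ermn. Lypd6b, Ermn and Arl5a were on the higher side at 4 h and on the lower side at 24 h, and neither side passed the adjusted threshold. Directions higher in all 3 contrasts, 4 h and each sex at 24 h, were seen for 8 of 28, Acvr1c, Acvr2a, Cacnb4, Gpd2, Mbd5, Rbm43, Rprm and Zeb2, against 15.1% of genes. Neb was the 1 of 28 that was lower in all 3, against 14.2% of genes. Without KO female 2, Cacnb4 and Mbd5 left the first group, which then held 6 of 28, against 13.1% of genes.

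**Figure D4:**
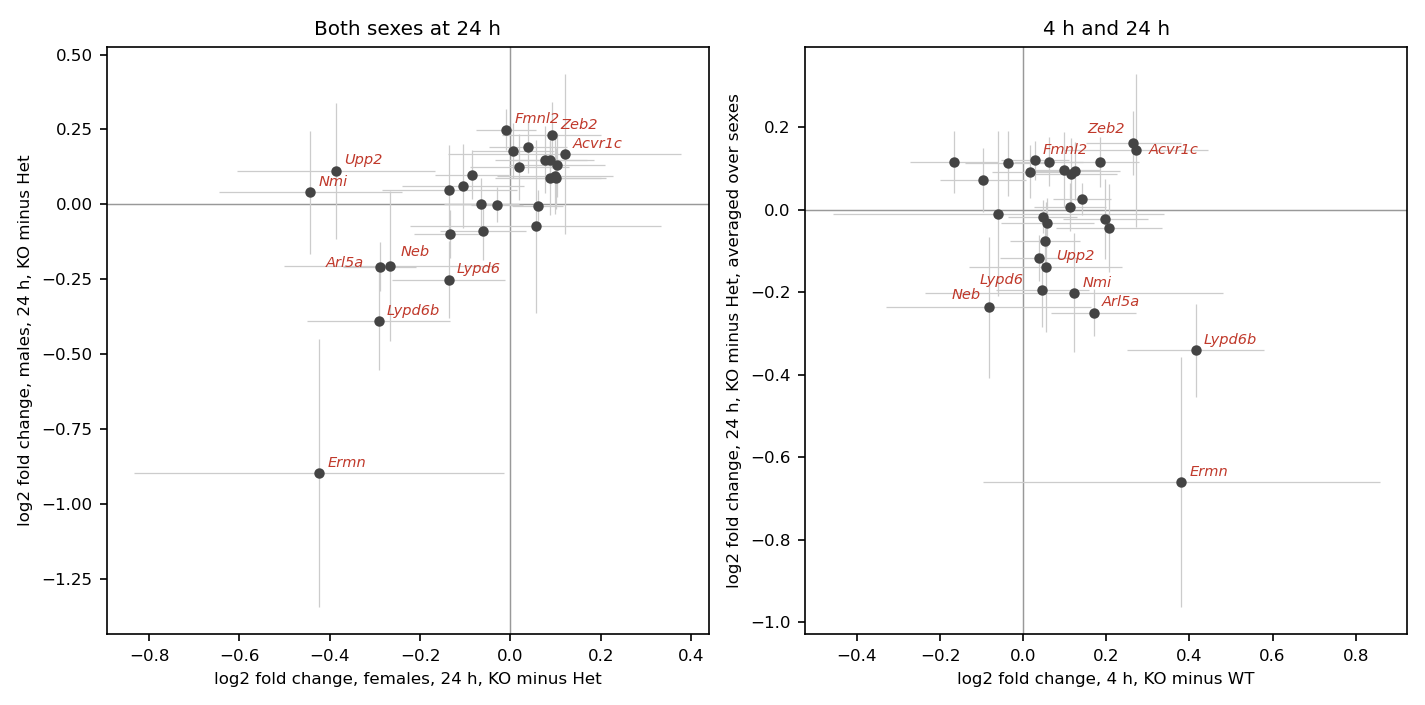
Log2 fold changes of the 28 tested neighbours with their SE, in females (x) and males (y) at 24 h on the left, and at 4 h (x) and 24 h averaged over sexes (y) on the right. On the left 19 of 28 fall in the lower left or upper right part; on the right Lypd6b, Ermn and Arl5a fall in the lower right, higher at 4 h and lower at 24 h.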

How the data were processed

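Total RNA of forebrain slices was turned into SMART-Seq libraries, per the labels' protocols. Per the submitters' processing notes, GRCm38 (mm10) was the build and the tools were TopHat2, HTSeq and DESeq2 1.38.3. Neither annotation release nor strand setting is stated in the sources used here. For 24 h the authors deposited raw counts of reads. For 4 h they deposited a signal, counts over 1 size factor per library: all values (100%) came out as whole reads within 0.05 after division by the worth of 1 read. Symbols were matched for 19673 of 19722 identifiers at 4 h and 51633 of 51912 at 24 h, and coordinates are 1-based on GRCm38.

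At 4 h, limma 3.58.1 with an intensity trend was run on log2(value + 1) for 15181 genes, those of mean 10 or more, a scale that understates changes of low genes. At 24 h, edgeR 4.0.16 (R 4.3.3) was run on counts of 16013 genes with TMM scaling, its default filter and the quasi-likelihood F test, with 1 mean per genotype and sex. Tests are two-sided, and p-values were adjusted by Benjamini-Hochberg over all genes tested. Both fits were run on simulated data with independent libraries, the same spread for every gene and larger changes than most neighbours had. Those runs therefore do not measure how the fits behave in the setting of these libraries. CPM use TMM-scaled totals, and reads per kb use whole library totals and merged exon length. For Tnfaip6 alone an exact permutation test gave p = 0.4 at 4 h (20 arrangements, smallest 0.1) and p = 0.0204 at 24 h within sex (1225 arrangements). The 24 h difference was towards a higher level in KO-labelled slices, with KO female 2 kept among the females. By sex the same permutation test gave p = 0.171 in females and p = 0.143 in males (35 arrangements each). Chi-square per degree of freedom between replicates was 3.17 to 12.7, so none agreed within sampling noise. Intervals of counting error are not given, since PCR copies are not independent molecules.

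Libraries with the same number deviated together at 4 h (correlations 0.264, 0.140 and 0.175 of deviations from group means). The 4 h p-values come from a fit that leaves out this pairing, except where the replicate block is named. DESeq2 1.42.0, other pseudocounts, filters and scalings, the replicate block and left-out libraries were alternatives. The neighbours, their 8 role groups, 14 marker lists (95 genes) and the rule for naming genes were chosen with earlier results of these data known. The rule gives values per library for the 3 nearest neighbours on each side, the 5 with the smallest p at 4 h and in the averaged 24 h contrast, the 3 in each sex and in their difference, and paralogues by level. Astrocyte, endothelial, meningeal, myelin, neuronal, choroid plexus, muscle, leukocyte and interferon markers are given in the results. Microglial markers lay below 0 for 8 of 10 at 4 h and at 24 h, oligodendrocyte precursor markers for 5 of 6 and 4 of 6, inhibitory neuron markers for 4 of 6 and 5 of 6, and striatal markers for 3 of 6 and 1 of 6. One marker of the leukocyte list is not reported here.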

Additional observations from a re-analysis of the deposited data

Results flagged for a closer look

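Kcnj3 in KO-labelled females at 24 h had 1 library far from the others. KO female 4 had 17.2 CPM, against 22.7 to 23.4 CPM in KO females 1 to 3, and its gap to the nearest of them was 0.879 of the range of the group, above Dixon's 95% limit for 4 samples. In all, 58 groups of 4 libraries were examined in this way, and chance flags about 1 in 20 groups. The female Kcnj3 log2 fold change, -0.11 ± 0.14, did not pass in edgeR (adjusted p = 1.0).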

How the results depend on the processing

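Of 904 values recomputed under alternatives, 864 kept their direction and their side of the threshold or stayed within their spread, 25 moved, 2 newly passed and 13 changed sign. At 4 h, where 7 genes passed in all, 144 passed by DESeq2, 28 with robust spread, 38 with the replicate block, 1 without the Xist-carrying libraries and 1 to 211 with 1 library left out (1 without WT 1, 2 without WT 2, 4 without KO 3, 11 without KO 1, 211 without KO 2). Neighbours passing at 4 h numbered 0 to 1 with 1 library left out, the 1 being Lypd6b without KO 2. In the averaged 24 h contrast, with 0 passing, 10 passed by DESeq2, 263 with no filter on low counts, 6 with the replicate block and 0 to 2 with 1 library left out (1 without KO female 3, 2 without Het male 3). Of the neighbours, 1 passed there with no filter, Arl5a. In females 2 passed by DESeq2, 180 with no filter and 6 with the block, and in males 1 by DESeq2, 220 with no filter and 1 with 1 sex in the fit. For the difference between sexes 1 passed by DESeq2, 165 with no filter and 4 with the block. The cause of these moves was not tested.

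Without the Xist-carrying libraries the 4 h value of Neb was 0.17 and of Nmi -0.28, both changed in sign. With 1 library left out, values ran from -0.36 to 0.066 for Neb, -0.13 to 0.46 for Nmi, -0.032 to 0.15 for Rif1 and -0.034 to 0.079 for Mmadhc at 4 h, and from -0.061 to 0.021 for Rif1 at 24 h. Where this leaves 2 libraries in a group, the spread is shared with the other groups. At 24 h same-numbered libraries did not deviate together (correlations -0.109, -0.0374 and -0.117 in females and 0.0867, 0.0298 and 0.0279 in males), so they share only a number, and with the replicate block 0 neighbours passed. Depth limits Kynu, Cytip, Galnt5, Ermn, Arhgap15 and Nmi, with at most 72 reads a library.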
